A study of Mus musculus with 2 samples.

Results

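The miRNA genes Mir489, Mir653, Mir31, Mir221 and Mir222, which are tied to muscle stem cells (satellite cells) and to myoblasts, were followed in gastrocnemius, a calf muscle. They are listed by symbol for their known roles, by a rule that uses no measured value, though the set was drawn up with earlier results of these data known. They make up 5 of the 2202 miRNA gene rows. The 2 libraries came from male B6CASTF1/J mice aged 25 days, an F1 hybrid of a laboratory and a wild-derived strain. They form 1 group with no treatment in the labels, as biological replicates 1 and 2. Their labels name different animals but carry 1 shared donor identifier, so any spread between them given here may be technical. All values come from whole muscle. Fewer cells of a type and less of a miRNA per cell therefore cannot be told apart.

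Satellite cells lie between a muscle fibre and its sheath, rest in a quiescent state, and on injury divide as myoblasts that fuse into fibres. In mouse satellite cells miR-489 helps to keep quiescence through the mRNA of Dek, a chromatin protein. There miR-31 holds back translation of the mRNA of Myf5, a myogenic transcription factor, so that the cell is ready for activation but does not enter it. The pair miR-221 and miR-222 is high in dividing myoblasts, falls as they differentiate, and represses Cdkn1b, the cell cycle inhibitor p27. None of these miRNAs is private to the lineage: miR-221 and miR-222 are also made by endothelial and smooth muscle cells, and miR-31 by epithelial cells and fibroblasts.

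Mature sequences are shown for the arms these roles refer to and for the 5′ arm of Mir653, because they show which members share a seed. They are those of RefSeq (GRCm38.p6), where entries were found for all 5 genes, and bases 2 to 8, the seed that pairs with target mRNAs, are in capitals.
miR-489-3p: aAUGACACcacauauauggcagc
miR-653-5p: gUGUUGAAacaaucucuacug
miR-31-5p: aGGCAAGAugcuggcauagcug
miR-221-3p: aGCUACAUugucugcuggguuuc
miR-222-3p: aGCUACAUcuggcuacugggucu
miR-425-5p: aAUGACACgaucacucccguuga
The arms miR-221-3p and miR-222-3p have identical first 8 bases and match at 11 of 23 positions in all. The sixth sequence belongs to no member: miR-425-5p is the other mouse arm in the table with the seed of miR-489-3p, and these arms too are identical over their first 8 bases. The seeds shown for miR-31-5p and miR-653-5p were found in no other mature miRNA of the table, and the seed of miR-221-3p and miR-222-3p also occurs in miR-1928.

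Matches to the seeds were looked up in the longest annotated 3′ UTR of each target named above (GENCODE M21, GRCm38). They are the letters complementary to bases 2 to 8 on the mRNA strand. The matches are in capitals in the mRNA sequences, which are given 5′ to 3′ with flanking bases.
Dek, first match: ttctgctttgccctcaaaGTGTCATcaat
Dek, second match: tggttgtgttaactctaaGTGTCATagaa
Myf5: tttcggttgtaaatactgTCTTGCCactt
Cdkn1b: tgcctctaaaagcattggATGTAGCattg
The Dek 3′ UTR of 1286 bases, on the minus strand, holds GTGTCAT, the match to miR-489-3p, at 2 places (chr13:47085354-47085382 and chr13:47085324-47085352). GTGTCAT was present at least 1 time in 8.89% of 3081 3′ UTRs of like length, a share that is not for 2 matches. The Myf5 3′ UTR of 1112 bases, on the minus strand, holds the match to miR-31-5p, TCTTGCC, at 1 place (chr10:107483893-107483921). At least 1 such match was present in 9.73% of 3053 like 3′ UTRs. The Cdkn1b 3′ UTR of 3439 bases, on the plus strand, holds the match to miR-221-3p and miR-222-3p, ATGTAGC, at 1 place (chr6:134924413-134924441). At least 1 such match was present in 23.0% of 2101 like 3′ UTRs. Such matches describe sequence and are no measure of binding in this muscle. Whether the roles above act through these sites was not tested.

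The members come from 3 loci, all on the minus strand in mm10. Mir489 (chr6:3721897-3722003) and Mir653 (chr6:3721301-3721385) lie 511 bases apart in 1 intron of Calcr, the calcitonin receptor gene, which marks quiescent satellite cells. That intron is the fourth in 3 annotated Calcr transcripts and the second in 2 others. Mir31 (chr4:88910557-88910662) overlaps an exon of the long non-coding RNA gene AL805899.1. Mir221 (chrX:19146294-19146388) and Mir222 (chrX:19146893-19146971) lie 504 bases apart, and no annotated gene on their strand holds them. None of the 5 hairpins shares a stretch of 20 bases with another annotated miRNA gene, and no opposite-strand gene overlaps them. Reads with several alignments, 71.8% of replicate 2 and 69.8% of replicate 1, are in no gene row. Of the mature arms of the members, those of Mir31 were found in another annotated transcript, that of AL805899.1, which covers the same bases. Copies outside annotated transcripts were not searched. Whether the members lost reads with several alignments was therefore not tested.

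The gene rows summed to 2028332 counts in replicate 2 and to 1491341 in replicate 1. Levels are given as CPM, counts per 1000000 gene counts, and 1 count stood for 0.493 and 0.671 CPM in these libraries. Muscle fibre miRNAs were present as the tissue label says, with Mir206 at 49955 ± 4826 CPM (SD, n = 2, as for all means here). Marker genes of other cells were present as well: endothelial Mir126a had 82900 ± 6540 CPM, and Mir143 of smooth muscle and pericytes 64179 ± 12850 CPM. The other endothelial gene, Mir126b, had 1 count in replicate 2 and 0 in replicate 1. Mir145a, the other gene of smooth muscle and pericytes, had 4593 ± 1175 CPM. Of 7 epithelial markers, Mir200a had no count and Mir203 led with 228 ± 21.6 CPM. The next highest, Mir200c, had 12 counts in replicate 2 and 8 in replicate 1, so the epithelial list was mostly Mir203. Summed over their lists, replicate 2 against replicate 1, the endothelial genes held 8.75% and 7.83% of gene counts, the smooth muscle and pericyte genes 7.87% and 5.89%, and the muscle fibre genes 4.80% and 5.46%. The leukocyte genes held 0.229% and 0.266%, the 4 fibroblast genes 0.0495% and 0.0605%, the red cell genes 0.0355% and 0.0174%, and the epithelial genes 0.0254% and 0.0223%. These shares leave out reads with several alignments, so they do not rank the cell types by amount. Among the fibroblast genes, Mir199a-1 had 0 counts in replicate 2 and 2 in replicate 1. How many reads each list lost in this way was not tested. Within lists, genes could go opposite ways: Mir199b had a log2 ratio of replicate 2 over replicate 1 of 0.87 and Mir214 of -0.38 among the fibroblast genes, and Mir208b had 1.31 and Mir206 -0.19 among the muscle fibre genes. How far such cells contributed to the members' counts was not tested.

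Together the members were a small part of the miRNA pool, and most of that part was Mir221. They held 635 counts in replicate 2, or 0.0313% of gene counts (exact 95% Clopper-Pearson interval 0.0289 to 0.0338). In replicate 1 they held 388 counts, or 0.0260% (0.0235 to 0.0287). Mir221 alone supplied 86.5% of the members' counts in replicate 2 and 90.2% in replicate 1. The X-linked pair supplied 94.2% of the members' counts in replicate 2 and 95.9% in replicate 1, and the Calcr pair 2.99% and 1.03%.

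**Figure D1:**
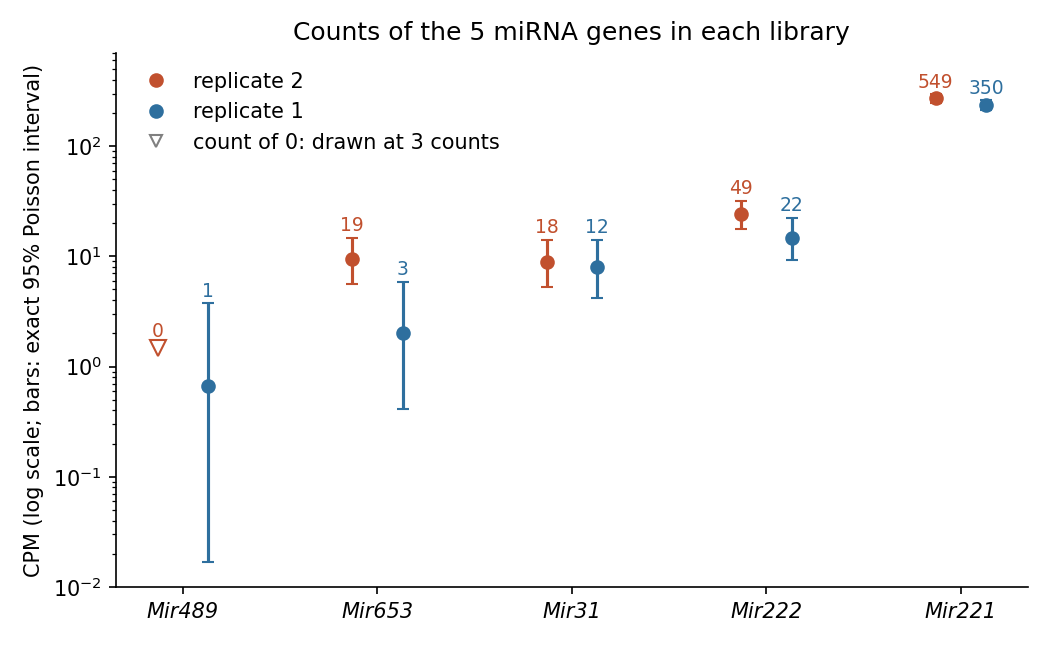
CPM on a log axis for each gene in replicate 2 and replicate 1, with exact 95% Poisson intervals as bars and the raw count above each point. A count of 0 is drawn at 3 counts. Mir221 stands above the other genes in both libraries, at 549 and 350 counts, and Mir489 has 0 and 1.

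Of the genes tied to quiescence, Mir489 was at the limit of detection. It had 0 counts in replicate 2 and 1 count in replicate 1. The 0 allows up to 3 counts as a one-sided limit, or 1.48 CPM, and its two-sided exact 95% Poisson interval reaches 1.82 CPM. The two-sided interval of the single count reaches 3.74 CPM. In replicate 1, 93 other genes also had exactly 1 count, and in both libraries together 123 genes had a summed count of 1. Mir489 could thus not be told from this tail at the depth reached. These intervals take in counting error alone and treat PCR copies as if they were separate molecules.

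Mir653, from the same intron, had 19 counts (9.37 CPM, 5.64 to 14.6) in replicate 2 and 3 counts (2.01 CPM, 0.415 to 5.88) in replicate 1. Most of its reads thus came from 1 library. In replicate 2 its 19 counts were at least 6.33-fold higher than Mir489 at the 3 counts that a 0 allows, and the exact 95% interval of the ratio, which also takes in the error of the 19, begins at 4.67. In replicate 1 its 3 counts stood against 1, a ratio of 3.00 with an exact interval of 0.241 to 157, so that no difference between the neighbours was detectable there. Per 100 annotated hairpin bases, the mean level was 6.69 CPM for Mir653 and 0.313 CPM for Mir489.

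The seed of miR-489-3p was present in this muscle mainly through another locus, as far as gene counts can tell. Mir425, which carries the same seed in miR-425-5p, had 542 counts in replicate 2 and 384 in replicate 1, or 262 ± 6.88 CPM. Mir489 therefore supplied 0 of 542 counts of the genes with this seed in replicate 2, which allows a share of up to 0.554% at 3 counts and of 0.678% by the two-sided exact interval. In replicate 1 it supplied 1 of 385, or 0.260% (exact interval 0.00658 to 1.44). Gene rows do not separate the arms of a hairpin, so these counts are for hairpins and not for the arm with the seed.

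Mir31, the regulator of Myf5 mRNA, had 18 counts (8.87 CPM, 5.26 to 14.0) in replicate 2 and 12 counts (8.05 CPM, 4.16 to 14.1) in replicate 1. Both libraries gave close estimates, with a mean of 8.46 ± 0.585 CPM, though the counting error of each is larger than this SD. A higher mean was found for 256 genes. Its neighbours in mean level were Mir3072 (8.62 CPM) and Mir6240 (8.57 CPM) above it and Mir1949 (8.41 CPM) and Mir183 (8.13 CPM) below it.

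Mir221 had 549 counts (271 CPM, 248 to 294) in replicate 2 and 350 counts (235 CPM, 211 to 261) in replicate 1, a mean of 253 ± 25.4 CPM. It ranked 115 by mean CPM, and its level was 2.39 times the median of 106 CPM over the 313 genes tested between the libraries. Next to it in level were Mir300 (257 CPM) and Mir467e (253 CPM) above and Mirlet7a-1 (252 CPM) and Mir128-2 (246 CPM) below. Of 2201 hairpins compared, 1132 share a stretch of 20 bases with another on either strand, while the members share none. Hairpins annotated on opposite strands of the same bases count as sharing here, and genes without counts are included. Reads of sharing genes can, but need not, have several alignments. Those that do are in no gene row. Ranks, the median and neighbours in level thus hold for the counted reads only.

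Mir222 had 49 counts (24.2 CPM, 17.9 to 31.9) in replicate 2 and 22 counts (14.8 CPM, 9.24 to 22.3) in replicate 1. Its mean of 19.5 ± 6.65 CPM lay between those of Mir194-2 (20.3 CPM) and Mir192 (20.2 CPM) above and Mir1249 (18.8 CPM) and Mir3068 (18.0 CPM) below. The X-linked neighbours were therefore far apart in both libraries. Counts of Mir221 exceeded those of Mir222 11.2-fold in replicate 2 (exact interval 8.36 to 15.3) and 15.9-fold in replicate 1 (10.3 to 25.7), a mean log2 ratio of 3.74 ± 0.36. Per annotated hairpin base the mean log2 ratio was 3.47. Mir222 thus made up 8.19% (6.12 to 10.7) and 5.91% (3.74 to 8.82) of the counts of this pair. Mir1928, which has the same seed, had no count in either library.

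In order of mean level the genes ran Mir221, Mir222, Mir31, Mir653 and Mir489, and the order was the same per hairpin base. Mir221 was clear of the rest in both libraries. Mir222 was above Mir31 in both, but their Poisson intervals overlapped in replicate 1. Mir31 and Mir653 did not differ beyond the spread between the libraries, with means of 8.46 ± 0.585 and 5.69 ± 5.20 CPM.

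**Figure D2:**
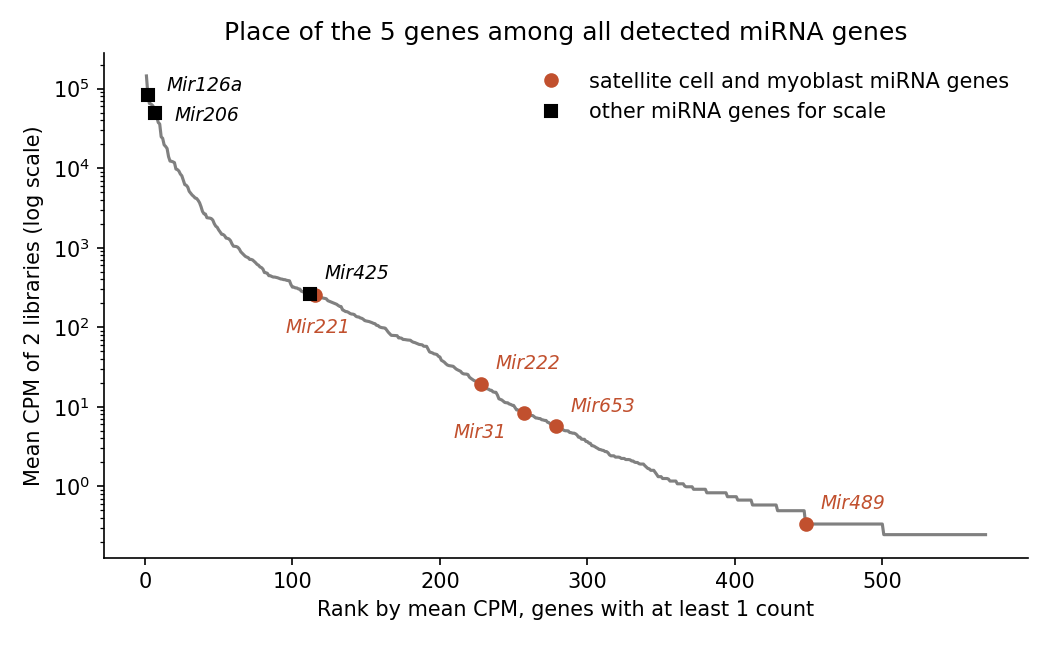
Mean CPM of the 2 libraries on a log axis against rank for the 570 miRNA genes with at least 1 count, with the members as circles and Mir126a, Mir206 and Mir425 as squares for scale. Mir221 lies at rank 115, Mir222 at 228, Mir31 at 257, Mir653 at 279 and Mir489 in the flat tail of genes with single counts, drawn at the first of its tied ranks.

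Between the libraries, 1 of the 4 members that could be tested passed. Counts of replicate 2 and replicate 1 were compared per gene by an exact two-sided binomial test with Benjamini-Hochberg adjustment over the 313 genes with at least 10 summed counts, a threshold that Mir489 with its summed count of 1 did not reach. This compares libraries, not conditions, and allows for counting error only. Over all genes it called 120 of 313 (38.3%), of which 62 were higher in replicate 2 (19.8%) and 58 lower (18.5%). The share of the members called, 1 of 4, is on too few genes to set apart from that background.

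Mir653 was higher in replicate 2, 4.69-fold after scaling (exact interval 1.38 to 24.7, log2 2.23, binomial test adjusted p = 0.0232). No other gene of the 313 had a larger log2 ratio, which was looked up after its value was seen. The interval is wide because the call rests on 19 against 3 counts. Of 45 genes with 15 to 35 summed counts, 5 were called: Mir653, Mir582, Mir135b and Mir182 higher in replicate 2, and Gm24270 lower, the last 4 named after their values were seen. With the spread between the libraries added to counting error, Mir653 did not pass (edgeR exact negative binomial test, adjusted p = 0.678), and neither did any other of the 313 genes (0%). The estimate of that spread came from these libraries themselves, and so contains the differences it is set against.

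The remaining members did not pass. The log2 ratio of replicate 2 over replicate 1 was 0.22 for Mir221 (exact interval 0.02 to 0.41, binomial test adjusted p = 0.0688). It was 0.72 for Mir222 (-0.03 to 1.52, adjusted p = 0.118) and 0.15 for Mir31 (-0.98 to 1.34, adjusted p = 0.909). At the depth of Mir31 the interval reached from 0.506 to 2.53-fold, so that a missed threshold there does not show equal levels. All 4 ratios were above 0, and the median over all genes tested was 0.05. Mir489, too low to be tested, had 0 counts in replicate 2 and 1 in replicate 1.

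**Figure D3:**
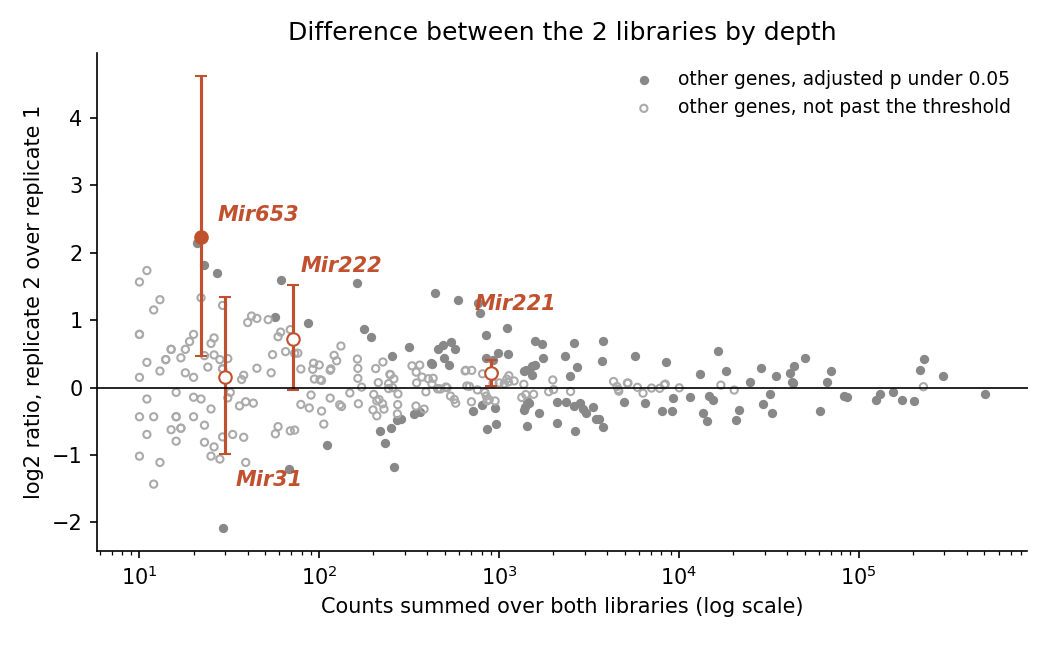
Log2 ratio of replicate 2 over replicate 1 against the summed count on a log axis for the 313 genes tested, with the 4 tested members and their exact 95% intervals. Filled points passed the binomial test and open points did not. Mir653, at 22 summed counts, has the highest point and the widest interval of the members.

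The members were set beside 26 other miRNA genes tied to satellite cells or myogenesis, a list chosen with earlier results of these data known. All 26 had counts, 13 were above Mir221 in mean CPM and 1, Mir133a-2, was below Mir31. Their median was 250 CPM, against 106 CPM over all genes tested. The 4 highest were Mir378a at 144533 ± 7598, Mir206 at 49955 ± 4826, Mir127 at 35988 ± 3408 and Mir322 at 12194 ± 1857 CPM.

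The genes linked to quiescence in that list were well above Mir489 and Mir653. Mir195a and Mir497, which share a primary transcript of the miR-15 family, had 2006 ± 17.7 and 562 ± 28.1 CPM. Mir708, reported in quiescent satellite cells, had 197 CPM in replicate 2 and 167 CPM in replicate 1. All of these are also made outside satellite cells. Mir206, which promotes myoblast differentiation, exceeded Mir221 198-fold. The other differentiation genes were lower, at 412 ± 42.8 CPM for Mir1a-2 and 16.1 ± 5.76 CPM for Mir133b. Mir1a, Mir133a, Mir24, Mir26a and Mir181a each have more than 1 gene in the list. Reads that align to several loci are not in the counts. How far that lowered these levels, that of Mir133b among them, was not tested.

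Between the libraries, 5 of the 25 list genes tested were higher in replicate 2 and 8 were lower, while 12 did not pass the binomial test, which over all 313 genes called 19.8% higher and 18.5% lower. With the spread between the libraries added, none of these genes passed, as for all 313 (edgeR exact negative binomial test). The median log2 ratio of those tested was 0.11, beside 0.05 over all genes. Among the 4 quiescence genes, Mir127 was lower, with a log2 ratio of -0.18 (exact interval -0.20 to -0.17, adjusted p = 3.92e-109 for counting error alone), and the other three did not pass, with Mir708 at 0.25 (exact interval 0.01 to 0.48, adjusted p = 0.0822).

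**Figure D4:**
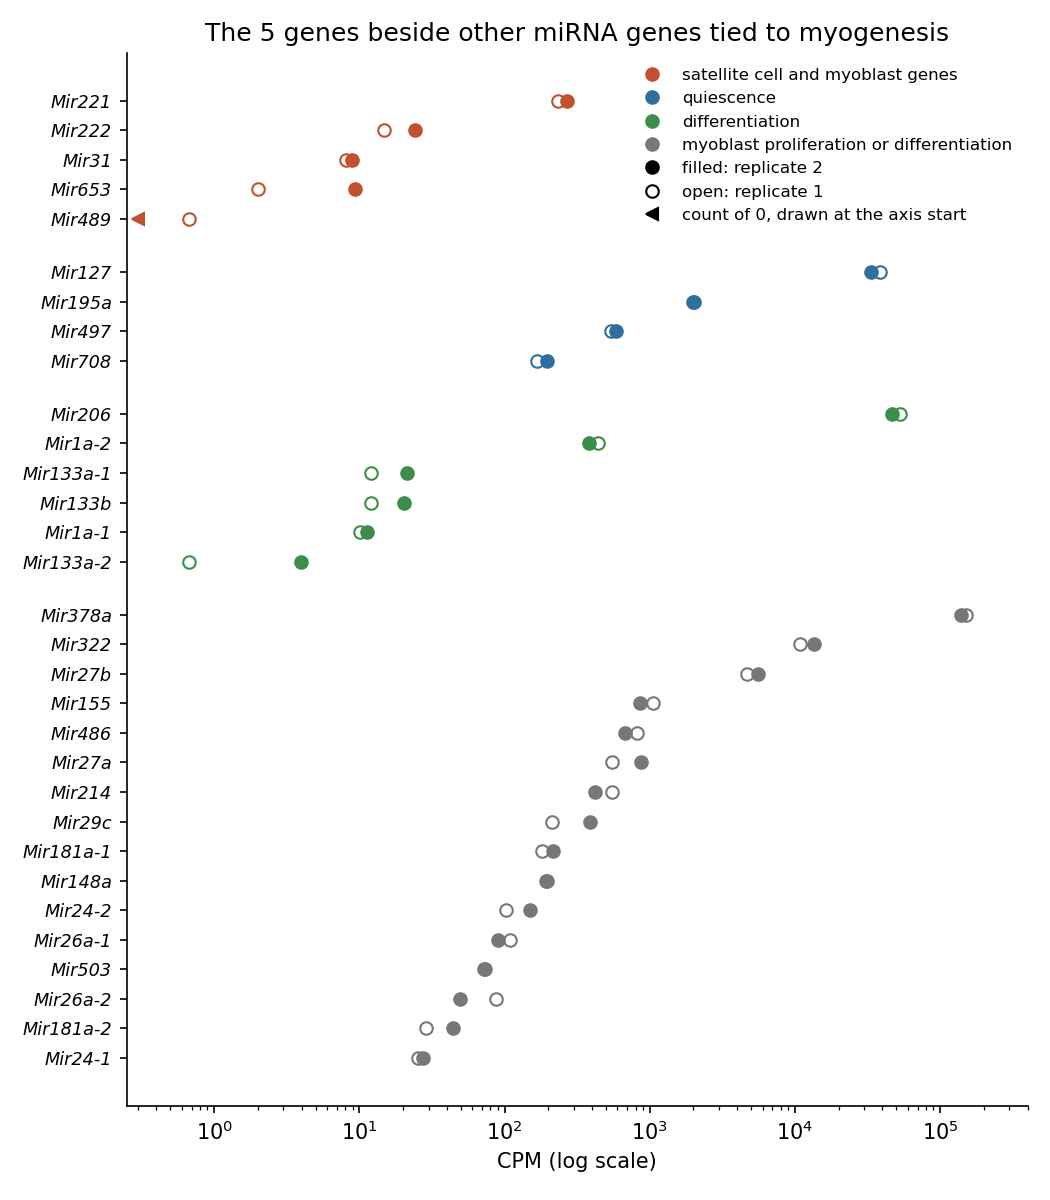
CPM on a log axis in replicate 2 (filled) and replicate 1 (open) for the 5 members and the 26 listed miRNA genes, grouped by role. Mir221 lies amid the list, while Mir222, Mir31, Mir653 and Mir489 lie at its low end beside the Mir133a and Mir133b genes, and the points of Mir653 are the farthest apart of the members with counts in both libraries.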

How the data were processed

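Each library has a deposited table of raw read counts per miRNA gene on mm10 with GENCODE M21, per the deposited file descriptions. The sources used here name neither aligner nor trimming. After 4 summary rows, which stayed out of library sizes, a table holds 3 count columns. Judged by their values, these ignore strand, follow the strand of the gene, or take the opposite strand. The second was used; the members had 0 counts in the third.

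CPM were computed on gene counts. Binomial tests used TMM library sizes (edgeR 4.0.16, R 4.3.3) and genes with at least 10 summed counts. A quasi-likelihood test needs a contrast, which 1 group does not give. The binomial step was run on counts of 314 genes for replicate 2 over replicate 1, simulated with counting error alone. It recovered 28 of 38 genes at 1.5-fold, 26 of 32 at 2-fold and 33 of 39 at 4-fold, and called 6 of 205 unchanged genes. The simulation had no further spread between libraries, so it does not give the rate of false calls in the real ones. Like-length 3′ UTRs were 0.8 to 1.25 times as long.

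The members and lists were chosen with earlier results of these data known. Named genes are the members, their 2 neighbours in level on each side, genes sharing a seed, hosts, the 4 highest list genes and marker genes. Further list genes were named by role after their values were seen. DESeq2 1.42.0 size factors, other filters, the column that ignores strand and other library totals were tried.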

Additional observations from a re-analysis of the deposited data

How the results depend on the processing

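Of the members, Mir653 lost its call when the spread between the libraries was added (log2 ratio 2.19, edgeR exact negative binomial test), and its adjusted p otherwise ranged up to 0.0418 without a filter on low counts. Under that test 0 of 313 genes passed, with 15 at an unadjusted p under 0.05, against 120 by the binomial test and 110 to 120 under its alternatives. Mir221 passed in the counts without regard to strand (log2 ratio 0.24, adjusted p = 0.0453, range 0.0453 to 1), where fewer genes were tested. Mir222 and Mir31 passed under no alternative (lowest adjusted p 0.0951 and 0.902). With at least 50 summed counts, Mir653 and Mir31 were not tested.

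Levels fell with all reads as the total, to 0.0667 CPM for Mir489, 1.16 for Mir653, 1.71 for Mir31, 51.2 for Mir221, 3.96 for Mir222 and 0.00581% for the 5 genes. Totals without strand gave 0.449 CPM for Mir489, 7.61 for Mir653, 11.3 for Mir31, 338 for Mir221, 26.0 for Mir222 and 0.0383% for the 5 genes, while their counts stayed as they were. Single libraries gave 0 to 0.671 CPM for Mir489, 2.01 to 9.37 for Mir653, 8.05 to 8.87 for Mir31, 235 to 271 for Mir221 and 14.8 to 24.2 for Mir222, 0.0260 to 0.0313% for the 5 genes, and log2 ratios of Mir221 over Mir222 of 3.49 to 3.99. Ratios between the libraries need both, so leaving one out gave no test. No paired analysis was possible because there is 1 group.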
